A study of Sus scrofa with 8 samples.

Results

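The enzymes that build and break down heme were examined in pig liver before and after a steatotic diet. A set of 9 genes was chosen by gene symbol, 7 of synthesis (ALAS1, ALAD, UROS, UROD, CPOX, PPOX and FECH) and 2 of breakdown (HMOX1 and BLVRB). Of these, 8 were found by their symbol among 18103 listed genes and transcripts, and all 8 passed the expression filter. For ALAS1 a new transcript (BGI_novel_G000105) that carries no symbol was used beside them, since the files describe it as the nonspecific, mitochondrial 5-aminolevulinate synthase by its likeness to a camel protein. It is called the ALAS1-type transcript here and is not counted among the 8. A further 3 genes of the pathway, HMOX2, BLVRA and ALAS2, are shown in the pathway order.

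Heme is made by a chain of reactions that starts in the mitochondrion, passes through the cytosol and ends in the mitochondrion again. The first enzyme, 5-aminolevulinate synthase, sets the pace of the chain, in hepatocytes as ALAS1 and in red blood cell precursors as ALAS2, and ALAS1 is restrained by heme itself. Heme oxygenase (HMOX1, inducible, and HMOX2, constitutive) opens the ring to biliverdin, which biliverdin reductases reduce to bilirubin. BLVRA acts on the main isomer of biliverdin in adults and BLVRB on other isomers. In the liver much of the heme goes into cytochromes P450, and resident macrophages break down the heme of aged red cells.

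Hepatic RNA was measured by RNAseq in 8 pools, each of 2 male Landrace x Large White pigs. The 4 pools of the initial state (labelled Control and healthy) were taken at 4 months of age by biopsy during the control diet. The 4 pools of steatosis came from the same pigs at 6 months, after 2 months on a diet high in saturated fat, fructose, cholesterol and cholate and deficient in methionine and choline, and were sampled after euthanasia. Diet, age and way of sampling therefore cannot be told apart.

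Values are FPKM, fragments scaled by transcript length and by library size, so levels of different genes can be compared. They summed to 511900 to 545700 per library, with 15934 to 16588 genes above 0. The read totals, which the paper gives as group means, were not used, since FPKM is already scaled by library size. The SD over pools stands for the precision. The paper also reports a lower percentage of clean reads in steatosis than in control, and its part in these values was not tested. In the text a gene "rose" or "fell" where limma with Benjamini-Hochberg adjustment over 13175 genes gave an adjusted p under 0.05. The limits of the study, an adjusted p under 0.01 with a log2 fold change beyond 1, are named where they were met. Over all genes tested the log2 fold change had a median of 0.25, which a scaling of the libraries by their median ratios brought to -0.01. Values for heme genes are given with and without that scaling. Albumin and 13 other hepatocyte genes were present in every pool at a summed 59810 to 99900 FPKM. Pool 1 of the initial state stood apart, with 4235 FPKM of skeletal muscle and stomach genes against 15.9 to 36.4 in the other initial pools and 6.04 to 7.51 in steatosis. Calls of named genes that were lost without it are marked. In whole tissue, a change in the number of cells of a type and a change in the RNA per cell cannot be told apart.

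Of the 8 enzymes found by symbol, 3 rose in steatosis (ALAD, HMOX1 and BLVRB), 1 fell (UROS) and 4 did not pass the test (UROD, CPOX, PPOX and FECH). Among all tested genes 26.7% rose, 2.28% fell and 29.0% passed in either direction. The median log2 fold change of the 8 was 0.10. BLVRB alone met the limits of the study, which 6.35% of all genes met in either direction and 6.01% met upwards. For 3 of the 8 every pool of one group lay beyond the other group, against 32.1% of all genes. After scaling by the median ratio, only BLVRB was still higher, and UROS, CPOX and FECH were lower. With that scaling 11.7% of all genes were higher, 9.78% lower and 21.5% either, and none of the 8 met the limits of the study, which 3.75% of all genes met and 3.12% met upwards.

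**Figure D1:**
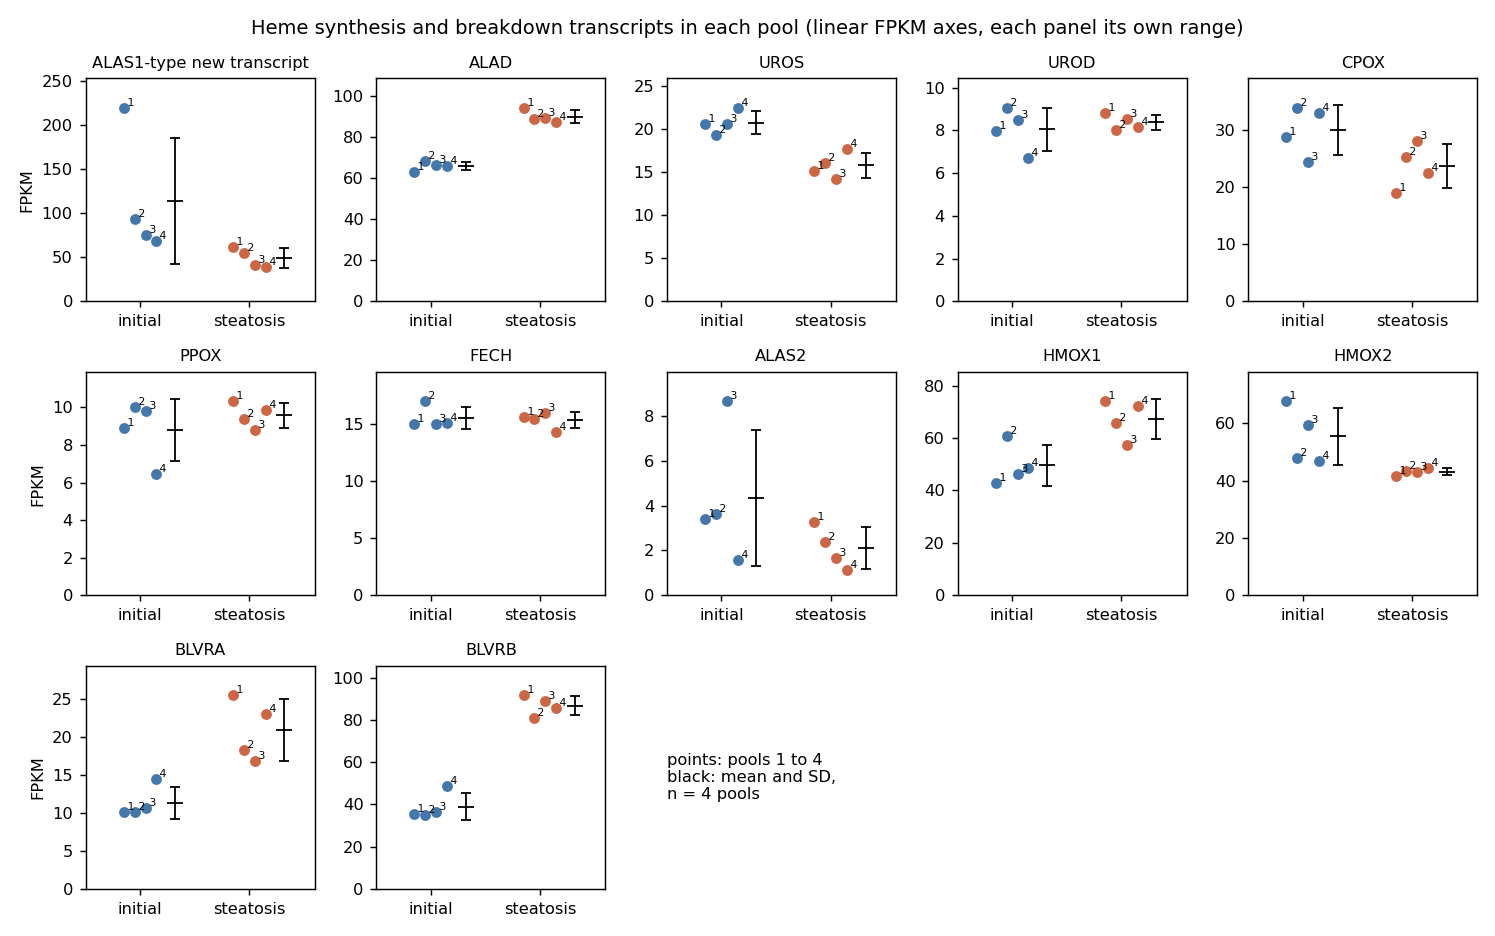
FPKM of each heme transcript in every pool, in pathway order, with initial state pools in blue and steatosis pools in red. Each panel has its own linear axis from 0, small digits give the pool number, and black marks show the mean and SD of 4 pools. BLVRB, BLVRA and ALAD lie apart upwards, and UROS, HMOX2 and the ALAS1-type transcript apart downwards. FECH and UROD lie at the same height in both groups.

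The transcript taken for the entry step of synthesis fell, with a call that depended on single libraries. The ALAS1-type transcript measured 219.57, 92.99, 74.68 and 68.15 FPKM in initial pools 1 to 4 and 61.91, 54.33, 40.9 and 38.79 FPKM in steatosis pools 1 to 4. All steatosis pools lay under the lowest initial pool, and pool 1 of the initial state, which held 4235 FPKM of muscle and stomach genes, was far above every other. The mean went from 113.8 ± 71.3 to 49.0 ± 11.0 FPKM (SD, n = 4 pools). The log2 fold change was -1.07 (limma adjusted p = 0.0376, SE 0.33), a 2.1-fold lower level. Without pool 1 of the initial state it was -0.70 (adjusted p = 0.0215). When libraries were removed singly, 4 of 8 fits kept an adjusted p under 0.05, and the highest was 0.0974. A block for the pool number, which assumes that pools of the same number hold the same pigs, gave an adjusted p of 0.00555. In that fit the limits of the study were met, but the paper does not state which pigs made up each pool. Within pools of the same number the log2 ratio was -1.83, -0.78, -0.87 and -0.81. Sscrofa11.1 carries ALAS1 as a transcribed pseudogene on chromosome 13 from 34333263 to 34347435, and the position of the new transcript was not analysed here.

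ALAS2, the erythroid form, was low. It measured 3.43, 3.64, 8.68 and 1.58 FPKM before the diet and 3.26, 2.38, 1.66 and 1.11 FPKM in steatosis, and the groups overlapped. Its log2 fold change of -0.86 (SE 0.47) had an adjusted p of 0.188 from limma. Red blood cell genes were also highest in pool 3 of the initial state, at a summed 1320 FPKM, against 286 to 581 FPKM in the other initial pools and 161 to 455.5 FPKM in steatosis. That list includes ALAS2, and its median log2 fold change of -0.86 is the value of ALAS2 itself. GYPC rose by 1.25, alone of 7 tested genes (14.3%, against 26.7% of all genes). HBB, the beta chain of hemoglobin and named after its values were seen, went from 620 ± 456 to 224 ± 135 FPKM (SD, n = 4). Its log2 fold change was -1.37 with a limma adjusted p of 0.0599. HBB was lower with the pool number as a term (adjusted p = 0.0441) and after median ratio scaling (adjusted p = 0.0391). HBM and AHSP had log2 fold changes of -1.27 and -0.95 and did not pass. The part of blood content in the ALAS2 values was not tested. The ALAS1-type transcript stood 8.60 to 64.0 times as high as ALAS2 in the initial pools and 19.0 to 34.95 times in steatosis.

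ALAD, which joins aminolevulinic acid molecules to porphobilinogen, moved the other way. It measured 63.06, 68.2, 66.2 and 65.79 FPKM before the diet and 94.32, 88.72, 89.28 and 87.05 FPKM in steatosis. Every steatosis pool was above every initial pool, and both groups were tight. The mean of ALAD (chromosome 1, 254015426 to 254027584) increased from 65.8 ± 2.12 to 89.8 ± 3.13 FPKM (SD, n = 4 pools), with a log2 fold change of 0.45 in limma (adjusted p = 0.0022, SE 0.07). This is 0.20 above the median of all genes. With the median ratio scaling the difference was 0.18 (95% confidence interval -0.02 to 0.37, adjusted p = 0.175). With any one library removed, its adjusted p lay between 0.00396 and 0.00949.

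UROS, which closes the ring to uroporphyrinogen III, was the one enzyme found by symbol that fell. Its initial pools held 20.58, 19.25, 20.55 and 22.5 FPKM and its steatosis pools 15.18, 16, 14.16 and 17.72 FPKM. No steatosis pool reached the lowest initial pool. UROS (chromosome 14, 135101609 to 135131082) went from 20.7 ± 1.34 to 15.8 ± 1.51 FPKM (SD, n = 4 pools), with a log2 fold change of -0.39 in limma (adjusted p = 0.0156, SE 0.10). It lay 0.65 under the median of all genes, and with the median ratio scaling the log2 fold change was -0.67 (adjusted p = 0.00541). Without pool 3 of steatosis the adjusted p was 0.0518, and the other 7 fits with one library left out kept it under 0.05.

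UROD, the cytosolic decarboxylase of the next step, differed by less than the spread between pools. It measured 6.7 to 9.07 FPKM in the initial state and 8.02 to 8.82 FPKM in steatosis, with a log2 fold change of 0.06 (95% confidence interval -0.19 to 0.31, adjusted p = 0.697 from limma). UROD lies on chromosome 6 from 166327243 to 166330558. Its sign turned to -0.21 with the median ratio scaling (adjusted p = 0.0982).

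CPOX, in the mitochondrial intermembrane space, measured 28.89, 34, 24.41 and 33.1 FPKM before the diet and 18.96, 25.32, 28.11 and 22.49 FPKM in steatosis. The groups overlapped through pool 3, the one pool number in which the steatosis value was the higher. The log2 fold change of CPOX (chromosome 13, 160332436 to 160345862) was -0.35 (limma adjusted p = 0.103, SE 0.15). It was -0.62 (adjusted p = 0.0276) with the median ratio scaling. Without pool 3 of both groups it was -0.53 (adjusted p = 0.0385), the only call of CPOX in 12 fits with libraries left out. With any one library removed its limma adjusted p lay between 0.0503 and 0.240.

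The last steps, PPOX and FECH, showed no difference that passed as deposited. PPOX, which oxidizes protoporphyrinogen, measured 6.46 to 10.04 FPKM in the initial state and 8.78 to 10.33 FPKM in steatosis (log2 fold change 0.14, 95% confidence interval -0.18 to 0.46, adjusted p = 0.489 from limma). PPOX (chromosome 4, 89277984 to 89288946) overlaps B4GALT3, and the counting is not stated to use strand, so reads of both could be shared. FECH, which inserts the iron, lies on chromosome 1 from 106861628 to 106898407. It measured 14.98, 16.96, 14.98 and 15.1 FPKM before the diet and 15.59, 15.39, 15.91 and 14.28 FPKM in steatosis. Its log2 fold change of -0.02 (95% confidence interval -0.21 to 0.18, adjusted p = 0.886) was the smallest of the chain. Read against the general shift FECH was lower, at -0.29 (adjusted p = 0.0403) with the median ratio scaling.

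**Figure D2:**
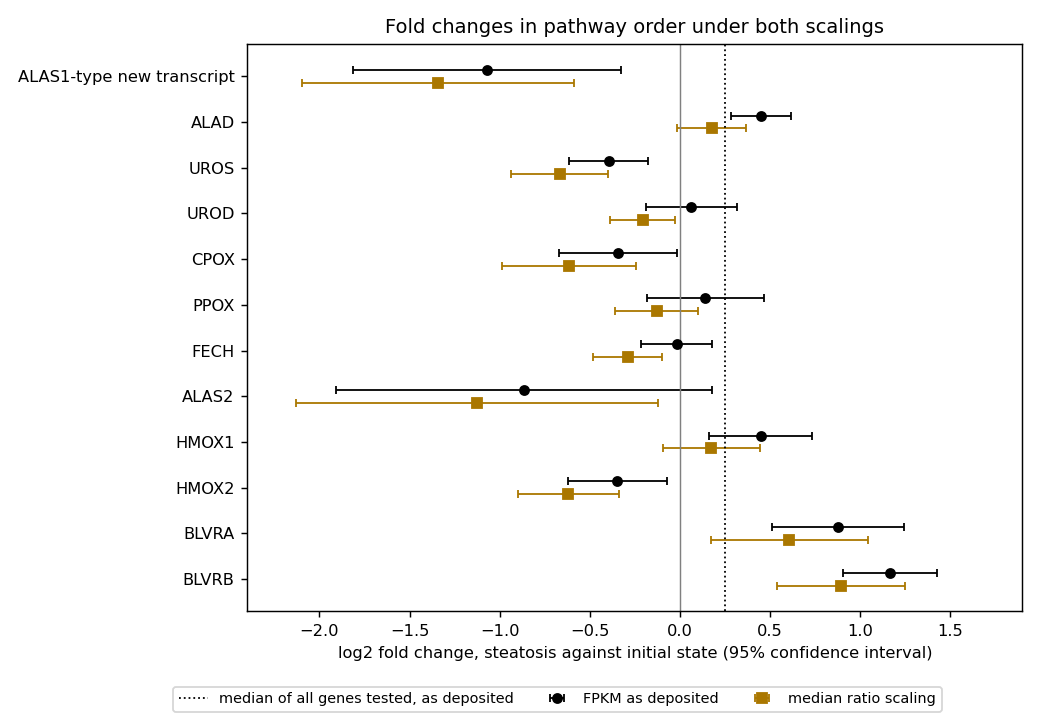
Log2 fold change of steatosis against the initial state for each heme transcript, with 95% confidence intervals from limma. Black points use FPKM as deposited, brown squares the median ratio scaling, and the dotted line is the median of all genes tested (0.25). The intervals of BLVRB, BLVRA, UROS, CPOX, HMOX2 and the ALAS1-type transcript keep clear of 0 under both scalings. Those of ALAD and HMOX1 include 0 under the median ratio scaling. The intervals are not adjusted for the number of genes, and CPOX and HMOX2 did not pass the adjusted test as deposited.

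On the breakdown side, HMOX1 rose modestly. It measured 42.61, 60.75, 46.29 and 48.48 FPKM before the diet and 73.99, 65.67, 57.25 and 72.32 FPKM in steatosis. The groups overlapped, since steatosis pool 3 lay under initial pool 2, and the exact permutation test gave a two-sided p of 0.0571, where 4 pools against 4 allow 0.0286 at the lowest. The mean went from 49.5 ± 7.86 to 67.3 ± 7.61 FPKM (SD, n = 4). HMOX1, which Sscrofa11.1 places on no chromosome, had a log2 fold change of 0.45 in limma (adjusted p = 0.0277, SE 0.13). The call was lost in 6 of the 8 fits with one library left out, with an adjusted p of at most 0.0801, among them 0.0593 without pool 1 of the initial state. With the median ratio scaling the log2 fold change was 0.17 (adjusted p = 0.334). Of 16 macrophage genes 9 rose too (56.25%, against 26.7% of all genes). Their summed level was 1062 to 1496 FPKM in the initial pools and 1571 to 1819 FPKM in steatosis. The part of macrophage genes in the levels of HMOX1, BLVRA and BLVRB was not tested.

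HMOX2 was above HMOX1 in initial pools 1 and 3, whereas HMOX1 was above HMOX2 in every steatosis pool. HMOX2 measured 67.64, 48.02, 59.31 and 46.68 FPKM before the diet and 41.52, 43.32, 43.11 and 44.29 FPKM in steatosis. The groups did not overlap, but the log2 fold change of -0.35 (SE 0.12) had an adjusted p of 0.0589 from limma, and -0.62 with an adjusted p of 0.00878 with the median ratio scaling. HMOX2 overlaps CDIP1 in the annotation. The ratio of HMOX1 to HMOX2 within a library, which no scaling between libraries can change, was 0.63, 1.27, 0.781 and 1.04 in the initial pools and 1.78, 1.52, 1.33 and 1.63 in steatosis. The summed level of both heme oxygenases was 95.2 to 110.2 FPKM before and 100.4 to 116.6 FPKM after the diet.

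Both biliverdin reductases rose. BLVRB measured 35.5, 35.01, 36.54 and 48.63 FPKM before the diet and 91.7, 80.87, 88.91 and 85.55 FPKM in steatosis. The lowest steatosis pool was far above the highest initial pool, which was pool 4. BLVRB (chromosome 6, 48715540 to 48728433), which also acts as a flavin reductase, went from 38.9 ± 6.50 to 86.8 ± 4.66 FPKM (SD, n = 4). Its log2 fold change of 1.17 in limma (adjusted p = 0.000153, SE 0.12) is a 2.25-fold higher level and was the only one of the 8 past the limits of the study. It lay 0.91 above the median of all genes. With the median ratio scaling it was 0.89 (adjusted p = 0.00498), still higher but under the 2-fold limit. With any one library removed BLVRB kept a log2 fold change of 1.12 to 1.28 as deposited. The annotation places LOC102158315 over the same stretch, and reads of both could be shared.

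BLVRA, the reductase of the main isomer of biliverdin in adults, measured 10.11, 10.1, 10.59 and 14.44 FPKM before the diet and 25.5, 18.26, 16.87 and 23.07 FPKM in steatosis. All steatosis pools were above all initial pools. The log2 fold change was 0.88 (limma adjusted p = 0.00392, SE 0.16), and 0.61 (adjusted p = 0.052) with the median ratio scaling. Pool 4 of the initial state was the highest initial pool for both reductases. BLVRB was 3.37 to 3.51 times as abundant as BLVRA in the initial pools and 3.60 to 5.27 times in steatosis. Together they measured 45.1 to 63.1 FPKM before and 99.1 to 117.2 FPKM after the diet.

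**Figure D3:**
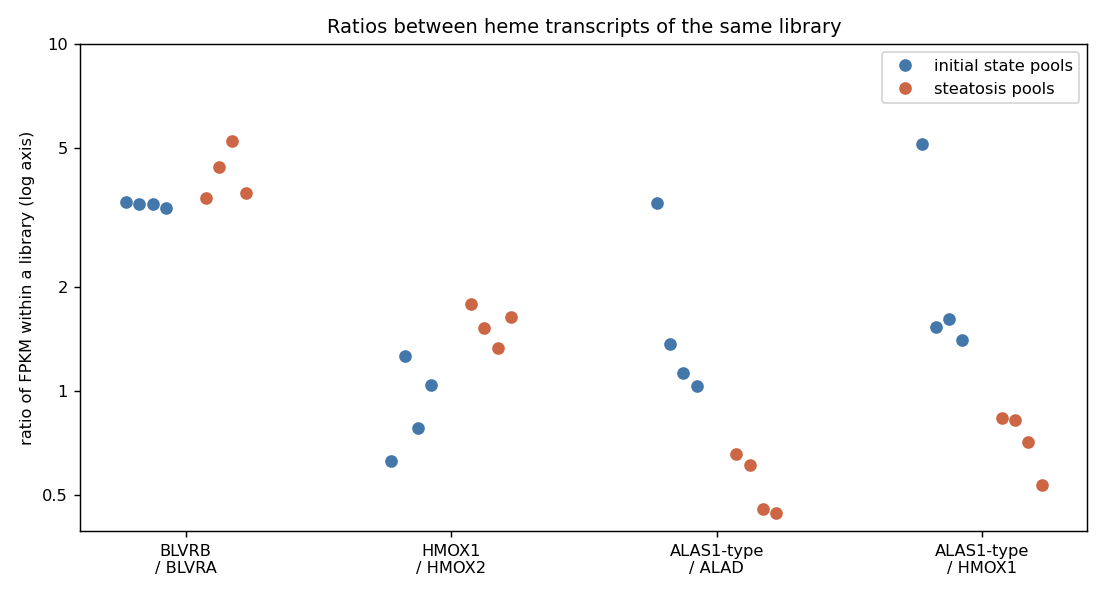
Ratio of the FPKM of transcript pairs within each library, on a log axis, with initial state pools in blue and steatosis pools in red. The ratio of the ALAS1-type transcript to ALAD lies between 1.04 and 3.48 in the initial pools and between 0.446 and 0.656 in steatosis, and the ratio of HMOX1 to HMOX2 lies higher in every steatosis pool than in any initial pool.

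The order of levels changed between groups. In the initial state the ALAS1-type transcript had the highest mean, followed by ALAD at 65.8, HMOX2 at 55.4, HMOX1 at 49.5 and BLVRB at 38.9 FPKM, and the ranges of each neighbouring pair overlapped. In steatosis ALAD (89.8 FPKM) and BLVRB (86.8 FPKM) led with overlapping ranges, and HMOX1 (67.3 FPKM) came next, clear of both. The ALAS1-type transcript was the fourth, at 49.0 FPKM. PPOX, UROD and ALAS2 were the lowest of the 12 in both states. Across the pair of states, the ALAS1-type transcript exceeded HMOX1 by 1.41 to 5.15 times in the initial pools and was 0.536 to 0.837 times its level in steatosis. These pairs were set side by side after their values were seen and carry no test.

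The 3 genes most like each changed enzyme were taken by Pearson's r of log2(FPKM + 0.1) over the 8 libraries, which share the difference between the groups. For the ALAS1-type transcript they were COQ10B (0.99), GNL3 (0.98) and DDX56 (0.97). S100A11, CHURC1 and SMAD6 came closest to ALAD, with r of 0.996, 0.995 and 0.995. UROS went with HP (haptoglobin, 0.97), C5H12orf45 (0.95) and LDHB (0.94). HMOX1 was most like MGAT4B (0.99), B4GALT1 (0.98) and DYNC2LI1 (0.98). BLVRB was most like TCIRG1 (0.996), a subunit of the vacuolar proton pump, BCAP31 (0.994) and RHOC (0.992).

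The other genes of the pathway were read from lists. Among all genes tested 26.7% rose and 2.28% fell, with a median log2 fold change of 0.25. With the median ratio scaling 11.7% were higher and 9.78% lower. In the list of further heme synthesis and breakdown genes, BLVRA was the 1 of 5 tested that rose and none fell, and with the median ratio scaling HMOX2 was the 1 that was lower. GLRX5 and COX10 of this list did not pass (adjusted p = 0.583 and 0.302), and COX15 and HCCS were not analysed here. Among 23 genes of heme and iron transport and heme binding, 7 rose (30.4%) and 3 fell (13.0%), with a median log2 fold change of 0.19. The share that rose was near that of all genes. TSPO, an outer mitochondrial membrane protein that binds porphyrins, rose from 3.80 ± 0.431 to 13.5 ± 2.26 FPKM (SD, n = 4), with limma adjusted p = 4.71e-05 and a log2 fold change of 1.80. HEBP2, a heme-binding protein, rose by 1.22 and SLC25A37, the mitochondrial iron importer mitoferrin-1, by 0.76 on the log2 scale. SLC48A1, which carries heme out of the lysosome, rose from 7.78 ± 1.06 to 11.8 ± 0.675 FPKM (log2 fold change 0.60, adjusted p = 0.00468). All 4 passed under the median ratio scaling too, SLC48A1 with an adjusted p of 0.049. HPX (hemopexin), the plasma protein that binds free heme, fell from 2679 ± 305 to 1903 ± 113 FPKM (log2 fold change -0.49, adjusted p = 0.0105), and no steatosis pool reached the lowest initial pool. Named after their values were seen, HP (haptoglobin), which binds free hemoglobin, fell from 7228 ± 1029 to 5021 ± 642 FPKM (log2 fold change -0.52, adjusted p = 0.0245), and PGRMC1, a heme-binding membrane protein, from 667 ± 88.7 to 512 ± 46.0 FPKM (-0.38, adjusted p = 0.0364). Without pool 1 of the initial state the log2 fold changes were close to these, at -0.47 for HP (adjusted p = 0.0545) and -0.38 for PGRMC1 (adjusted p = 0.059), and neither was called. LRP1, the receptor that takes up the complex of heme and hemopexin, was also named after its values were seen and rose from 24.9 ± 5.14 to 40.6 ± 5.59 FPKM (0.72, adjusted p = 0.00953). The porphyrin transporters ABCG2 and ABCB6, chosen in the same way as LRP1 above, rose by 0.62 and 0.56 on the log2 scale, ABCB6 without passing in the median ratio scaling (adjusted p = 0.168) or without pool 1 of the initial state, where its log2 fold change stayed at 0.56 (adjusted p = 0.0597). With that scaling 6 of the 23 genes were higher and 7 lower, among the latter SLC25A38, likewise named after its values were seen (-0.47, adjusted p = 0.0112), which brings glycine into the mitochondrion for the first step.

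Of 20 regulators of ALAS1 and HMOX1, 3 rose (NFE2L2, NRF1 and CLPP) and 1 fell (PPARGC1A), NRF1 and CLPP being named after their values were seen, and with the median ratio scaling none was higher and 2 were lower. CLPP, at a log2 fold change of 0.33 (adjusted p = 0.0239), was not called with the block for the pool number (0.0567) or without pool 1 of the initial state (0.29, adjusted p = 0.0531). PPARGC1A (PGC-1 alpha), a coactivator that drives ALAS1, measured 6.96, 2.85, 2.9 and 2.11 FPKM before the diet and 1.44, 1.6, 2.09 and 1.5 FPKM in steatosis, a log2 fold change of -0.98 in limma (adjusted p = 0.0422, SE 0.32). Like the ALAS1-type transcript it was highest in pool 1 of the initial state, and without that pool its log2 fold change was -0.63 (adjusted p = 0.0336). NFE2L2 (NRF2), which induces HMOX1, rose from 16.1 ± 2.60 to 24.3 ± 2.94 FPKM (log2 fold change 0.60, adjusted p = 0.00975) but not with the median ratio scaling (adjusted p = 0.0694). BACH1, the repressor of HMOX1 that heme releases, was at 4.38 ± 0.994 and 4.74 ± 1.02 FPKM (adjusted p = 0.693). NR1I3 (CAR) had a log2 fold change of 0.52 with an adjusted p of 0.0979, and 0.0359 with the block for the pool number.

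Targets of NRF2 had 10 of 15 genes higher (66.7%, against 26.7% of all genes) and none lower, with a median log2 fold change of 0.73. SRXN1, which repairs peroxiredoxins, rose by 1.47 on the log2 scale, PGD of the pentose phosphate pathway by 1.04 and TXN (thioredoxin) by 1.03. FTL, the light chain of ferritin, which stores the iron that heme oxygenase frees, was named after its values were seen and rose from 4517 ± 284 to 6021 ± 573 FPKM (log2 fold change 0.41, adjusted p = 0.0262), but not with the median ratio scaling (adjusted p = 0.587). Under that scaling 7 of the 15 were higher, against 11.7% of all genes. Bilirubin handling had 3 of 7 genes higher (42.9%, against 26.7% of all genes) and none lower. These were FABP1 (log2 fold change 1.22, adjusted p = 0.00775), GSTA1, a cytosolic bilirubin binder (0.66, adjusted p = 0.00979), and SLCO2B1, an uptake transporter (0.74, adjusted p = 0.022). None of the 7 passed in limma after median ratio scaling, and 2 had an unadjusted p under 0.05. UGT1A1, which conjugates bilirubin, was not analysed here. The list of heme proteins had 8 of 15 genes higher (53.3%, against 26.7% of all genes) and none lower. It also counts partners of heme proteins, among them the reductase POR and CYBA. Of the 8 higher genes, CYP7A1, the rate-limiting enzyme of bile acid synthesis, was at 9.52 ± 3.55 and 38.45 ± 14.7 FPKM. CYBA, the small subunit of the phagocyte oxidase cytochrome, was at 14.6 ± 0.787 and 47.4 ± 2.92 FPKM, and CYGB (cytoglobin) at 1.02 ± 0.231 and 2.49 ± 0.555 FPKM. After median ratio scaling 6 of the 15 were higher and 1 lower, against 11.7% and 9.78% of all genes. POR, the reductase that feeds electrons to cytochromes P450 and to heme oxygenase, is among the 8 but holds no heme itself. POR was chosen after its values were seen. It rose from 40.4 ± 4.86 to 63.9 ± 5.02 FPKM (log2 fold change 0.67, limma adjusted p = 0.00169) and passed in both scalings.

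**Figure D4:**
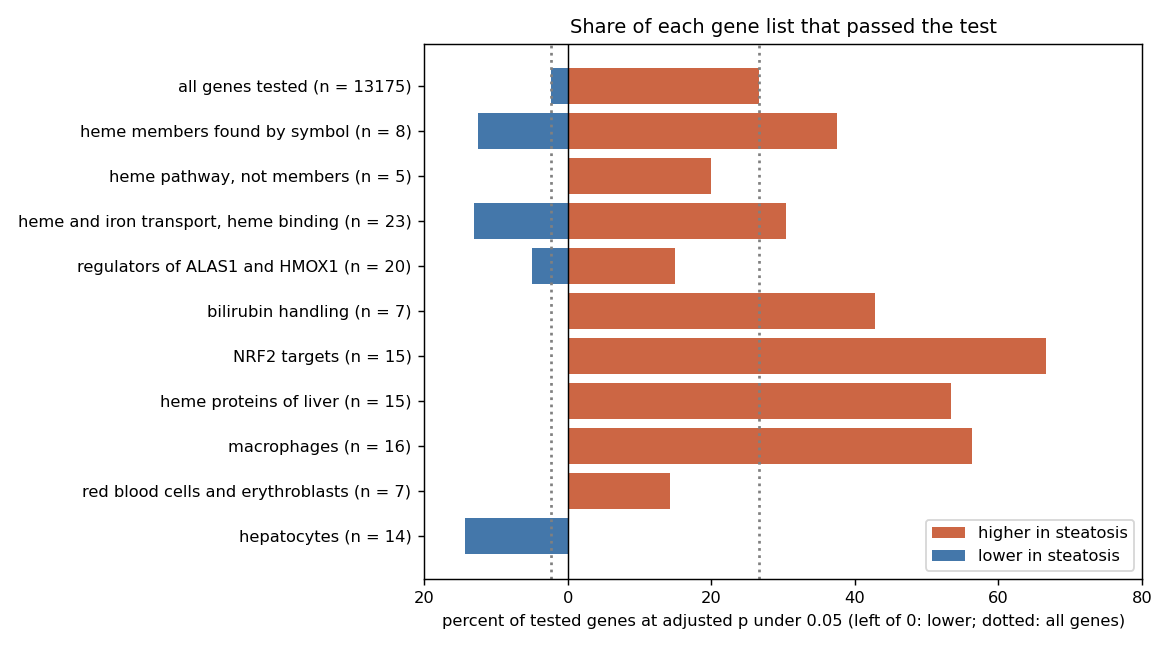
Percent of the tested genes of each list that passed an adjusted p under 0.05 in limma, higher in steatosis to the right (red) and lower to the left (blue), with the number tested in parentheses and dotted lines at the shares of all genes (26.7% and 2.28%). NRF2 targets, macrophage genes and heme proteins reach furthest to the right, and among the lists drawn the hepatocyte list alone has its bar on the left only.

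Other cell types moved alongside these results. None of the 16 macrophage genes fell, and no gene of that list was at 0 throughout. MARCO, a scavenger receptor, rose by 3.33, MSR1 by 2.35 and CD68 by 2.01 on the log2 scale. The paper selected CD68 under another gene entry, with a larger change, and that entry was not analysed here. CD163, the receptor for hemoglobin bound to haptoglobin, did not pass, at 23.1 ± 3.99 and 28.7 ± 2.38 FPKM (log2 fold change 0.32, adjusted p = 0.0889 from limma). Of 14 hepatocyte genes 2 fell (14.3%, against 2.28% of all genes), APOH (-0.40) and FGB (-0.44), and none rose. After median ratio scaling 11.7% of all genes were higher and 9.78% lower. Of the 14 hepatocyte genes 5 were then lower, and of the macrophage genes 6 were higher and 1 lower. The lower gene was CD5L, named after its values were seen (log2 fold change -0.62, limma adjusted p = 0.0344). As deposited, CD5L was at 190 ± 36.7 and 148 ± 10.4 FPKM without overlap of the groups (-0.34, adjusted p = 0.0709). The median log2 fold change of the hepatocyte list was -0.18, and its summed level went from 67810 to 99900 FPKM to 59810 to 69710 FPKM. The skeletal muscle and stomach list had 1 of 3 tested genes lower, ACTA1, which measured 1439.17, 0.49, 4.08 and 10.51 FPKM before the diet and at most 0.04 FPKM in steatosis. Without pool 1 of the initial state ACTA1 did not reach the expression filter. The part of hepatocyte content in the lower levels of UROS and the ALAS1-type transcript was not tested.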

How the data were processed

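RNA was pooled from 2 pigs per library and sequenced as 100 bp paired reads. The authors filtered the reads, mapped them with HISAT2 2.0.4 to the pig assembly Sscrofa11.1, found new coding transcripts with StringTie, and estimated expression with Bowtie2 2.2.5 and RSEM 1.2.12 (versions from the submitters' processing notes). The authors deposited FPKM for 8 libraries, with no scaling between libraries stated. The 4 deposited comparisons of single pairs of pools, which hold the authors' fold changes and FDR, were not used.

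A gene was fitted if 4 of the 8 libraries reached 0.3 FPKM. The fit was made with limma 3.58.1 (R 4.3.3) on log2(FPKM + 0.1) with a trend and group as the only term. Fold changes are on that scale. The fit was tested on simulated data. Single values used a two-sided exact permutation test. Other values came from Python 3.11.15 with numpy 2.4.6, pandas 2.3.3, scipy 1.17.1 and matplotlib 3.10.9. RefSeq supplied coordinates.

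Pools of the same number were treated as pairs in the block fit, because the paper gives both groups as the same pigs. Deviations from the group means also correlated at 0.16, 0.35, 0.32 and 0.25 between pools of the same number. The pairing is an assumption, since the paper does not state which pigs made up each pool. The alternatives were other pseudocounts, filters and scalings, no trend, the pool number as a block, and libraries left out. Each pool is one replicate. The limma p values test the group difference against the spread between pools, which limma moderates over all genes. The main fit treats the groups as unpaired, so differences between pigs are part of that spread. Members and lists were chosen with earlier results of these data known. The genes named are all members, 10 fixed genes of the 10 lists, the members of each list that passed (where more than 3 did, the 3 with the largest changes in the list), and the 3 genes most correlated with each changed member. Genes named after their values were seen are marked as such. One further gene of the heme pathway was taken out of its list and is not reported here.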

Additional observations from a re-analysis of the deposited data

Results flagged for a closer look

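Among 12 heme transcripts in 2 groups of 4 pools, 4 values stood far from the other pools of their group, and chance alone gives about 1 in 20 of the 24 groups. The ALAS1-type transcript measured 219.57 FPKM in pool 1 of the initial state, where the next pool was at 92.99. BLVRA and BLVRB were both highest in pool 4 of the initial state, at 14.44 and 48.63 FPKM, with the next pools at 10.59 and 36.54. FECH measured 16.96 FPKM in pool 2 of the initial state, with the next pool at 15.1.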

How the results depend on the processing

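Scaling between libraries moved the calls of ALAD, HMOX1, CPOX and FECH, and the filter, trend, pseudocount and block moved others. BLVRB passed under every alternative, but the number of enzymes past the limits of the study went from 1 to 0 with upper quartile scaling, with median ratio scaling, with the latter and the replicate block, and with the latter and initial pool 1 left out, a setting added after seeing the data. In the same order of 4 settings, the number higher at an adjusted p under 0.05 went from 3 to 1 in each, and the number lower from 1 to 2, 3, 2 and 2. ALAD was no longer called at 0.23, 0.18, 0.18 and 0.16 on the log2 scale, nor was HMOX1 at 0.23, 0.17, 0.17 and 0.11. CPOX was called at -0.57, -0.62, -0.62 and -0.63. UROD turned to -0.15, -0.21, -0.21 and -0.21 and PPOX to -0.078, -0.13, -0.13 and -0.11, none of them called. FECH was called at -0.29 with median ratio scaling alone. The ALAS1-type transcript, at -1.07, was not called without the filter (adjusted p = 0.0598) or without the trend (0.051). The replicate block by itself changed no call of the 8 enzymes. The assumed pairing moved the ALAS1-type transcript past the limits of the study and the count of red blood cell genes from 1 to 2. The cause of these changes was not tested beyond the shift of the median of all genes.

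List counts at an adjusted p under 0.05 moved as well. With upper quartile scaling, median ratio scaling and the latter with the replicate block, the other heme pathway genes were 2, 1 and 2 against 1 as deposited, bilirubin handling went from 3 to 1, 0 and 0, red blood cells from 1 to 2 in each, and hepatocytes from 2 to 4, 5 and 6. Regulators went from 4 to 2 with median ratio scaling with and without the block. Hepatocytes went to 0 without the filter, and muscle and stomach genes from 1 to 0 with a pseudocount of 1 or a filter of 1 FPKM.

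Over 12 fits that left out 1 library or both pools of a number, the enzymes past the limits of the study stayed at 1 to 1, those called at 2 to 4, those higher at 2 to 3 and those lower at 0 to 1. The count fell to 2 without pool 1 of both groups. UROS lost its call there, and also when steatosis pool 3 or both pools 3 were left out. The log2 fold change ranged from -1.26 to -0.70 for the ALAS1-type transcript, 0.40 to 0.47 for ALAD, -0.45 to -0.35 for UROS, -0.021 to 0.14 for UROD, -0.53 to -0.24 for CPOX, -0.014 to 0.24 for PPOX, -0.054 to 0.025 for FECH, 0.33 to 0.56 for HMOX1 and 1.10 to 1.28 for BLVRB. The ALAS1-type transcript lost its call without initial pool 2 or steatosis pool 2, 3 or 4, and HMOX1 without initial pool 1, 3 or 4 or steatosis pool 1, 2 or 4. List counts ranged over 1 to 2 for other heme pathway genes, 6 to 10 for transport and binding, 0 to 5 for regulators, 2 to 4 for bilirubin handling, 9 to 12 for NRF2 targets, 7 to 10 for heme proteins, 7 to 11 for macrophages, 1 to 4 for red blood cells, 0 to 3 for hepatocytes and 0 to 1 for muscle and stomach. Single libraries moved some of these by over 1.5 times. Heme pathway genes were 2 without initial pool 2 or 4. Regulators were 2 without initial pool 3 or steatosis pool 2 or 4, and 1 without steatosis pool 1 or 3. Red blood cell genes were 4 without initial pool 4 and 2 without steatosis pool 1. Hepatocyte genes were 1 without steatosis pool 2, 3 or 4. ACTA1, the muscle gene called, was not called or did not reach the filter without any one initial pool or steatosis pool 4.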
